A study of Mus musculus with 9 samples.

Results

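The genes described are the subunits of the mouse proteasome, taken as every gene whose symbol is Psma, Psmb, Psmc or Psmd followed by a number. Of the 39 genes that matched, 37 reached 0.5 FPKM in at least 3 of the 9 libraries, and they stand among 14013 genes that passed the same filter. FPKM is the number of fragments of a gene divided by its transcript length and by the library's mapped fragments. The 37 genes comprise 17 of the core particle (Psma and Psmb) and 20 counted by symbol as the cap (Psmc and Psmd). The 20 include the assembly chaperones Psmd5, Psmd9 and Psmd10. The 2 genes below the filter were Psma8, a testis form of an alpha subunit, at 0.04 to 0.28 FPKM, and Psmb11, a thymus form of a catalytic subunit, at 0.3 to 0.52 FPKM. Closest above the filter were Psmb9 at 0.86 to 1.48 FPKM and Psmb8 at 1.4 to 2.42 FPKM.

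RNA came from the medial prefrontal cortex of mice in 3 groups of 3 libraries. The control group was not stressed, the CUS group was a chronic unpredictable stress model of depression, and the running group had running exercise. According to the series text, mice under the stress were the ones given running, so the running group is read here as stressed mice that ran, although its own label names exercise only. All groups carry the terms 4 week and week 8 without a statement of which treatment each refers to, and strain, sex and age were not given in the sources used here. Libraries are numbered by listing order, which pairs none of them. Nothing in the labels says that each library is a separate animal, so p-values measure the spread between libraries, which may be technical.

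The proteasome degrades proteins that carry ubiquitin chains. Its core particle is a barrel whose outer rings are alpha subunits (Psma genes) and whose inner rings are beta subunits (Psmb genes), some of which carry the proteolytic sites inside the chamber. The cap sits on the end of the barrel. Its base holds a ring of ATPases (Psmc genes) that unfold substrates, and its base and lid hold the Psmd subunits that bind, edit and remove ubiquitin. In neurons the proteasome turns over synaptic proteins, and its subunit genes are driven together by the transcription factor Nfe2l1 through antioxidant response elements in their promoters.

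Because these promoters are known for shared elements, the RefSeq promoter windows (GRCm38.p6, 250 bases before to 50 after the start) were read for 31 of the 37 genes. The other 6 had no window: Psmb1, Psmb2 and Psmb7 of the core and Psmc3, Psmd3 and Psmd7 of the cap. The letters TGACNNNGC, the core of the antioxidant response element, were searched on both strands; they overlap the letters of AP-1 and cAMP response elements. A gene was counted if any of its windows held a match. The letters occurred in 5 of the 31 genes (16.1%), against 16.7% of genes with a window that passed the filter and 13.99% of all genes with a window. The letters CCGGAAG, bound by ETS factors, occurred in 10 genes (32.3%), 1 of the core and 9 of the cap, against 18.2% of genes that passed the filter. Searched likewise were the nuclear respiratory factor 1 motif (19.4% of members beside 10.6% of genes that passed the filter), AAGATGGC of YY1 (9.68% beside 4.88%), the CCAAT box (38.7% beside 42.7%) and the GC box GGGCGG (61.3% beside 67.4%). Pieces of 60 bases around the antioxidant letters in all 5 genes that hold it, with its match in capitals, are shown because 2 of them are catalytic subunits whose levels are described next. Then come the ETS matches of Psmd2 and Psmd11, a scaffold and a lid subunit, both picked for their levels. Psmd2 differed least in CUS against control. Psmd11 was higher in running than in CUS, where most members were lower. The same letters stood in Psma6, Psmc1, Psmc2, Psmc6, Psmd4, Psmd6, Psmd12 and Psmd13. These had the sign of most members in CUS against control and in running against CUS, and so did Psmd2, by small differences. A link between the letters and the levels was not tested.
Psmb5 (chr14:54618008-54618067, minus strand): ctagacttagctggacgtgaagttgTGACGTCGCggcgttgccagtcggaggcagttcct
Psmb6 (chr11:70525297-70525356, plus strand): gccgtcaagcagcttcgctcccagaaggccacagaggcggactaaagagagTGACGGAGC
Psmc6 (chr14:45329574-45329633, plus strand): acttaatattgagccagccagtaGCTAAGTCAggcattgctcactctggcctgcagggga
Psmd12 (chr11:107479278-107479337, plus strand): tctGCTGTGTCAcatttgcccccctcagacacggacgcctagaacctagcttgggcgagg
Psmd9 (chr5:123228130-123228189, plus strand): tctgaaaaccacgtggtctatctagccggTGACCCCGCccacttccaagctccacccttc
Psmd2, ETS match (chr16:20651592-20651651, plus strand): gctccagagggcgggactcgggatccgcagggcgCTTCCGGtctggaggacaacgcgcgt
Psmd11, ETS match (chr11:80428555-80428614, plus strand): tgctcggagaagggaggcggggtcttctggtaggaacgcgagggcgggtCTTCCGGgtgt
The antioxidant matches begin 47 bases before the start used by the window for Psmb5 and 9 before it for Psmb6. Those of Psmc6 and Psmd12 lie on the opposite strand. A window's start can lie inside the RefSeq span of its gene. The Psmb6 piece overlaps that span, and the Psmd2 piece lies wholly within it (chr16:20651122-20663414). The 31 members thus held the antioxidant letters about as often as other genes that passed the filter, and a match describes letters only, not a bound site.

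FPKM summed over a library ranged from 370441 to 423257, with CUS 3 the highest and the other 8 libraries at or below 393663. From the steps between low values, a library held an estimated 19800000 to 22500000 fragments, taking 150 bases as the fragment length. Markers of excitatory neurons (5 of 5 genes kept) summed to 1725 to 1789 FPKM in control, 1688 to 1753 in CUS and 1766 to 1856 in running libraries, so that running lay wholly above CUS. Inhibitory neuron markers (5 of 5) summed to 650 to 822, 729 to 813 and 624 to 683, with running wholly below CUS. Blood markers (5 of 5) summed to 493 to 875, 683 to 1040 and 972 to 1238, with running wholly above control. Oligodendrocyte markers (6 of 6) summed to 609 to 1139 in control, 459 to 680 in CUS and 537 to 608 in running libraries. Microglia markers (6 of 6) summed to 73.6 to 75.5, 78.9 to 84.0 and 71.5 to 78.2, with CUS wholly above control and running. Choroid plexus markers (2 of 4 genes kept) stood at 215 in control 3 and at 6.68 to 40.6 elsewhere. The part of these cell type differences in the proteasome values was not tested. In such bulk RNA, fewer cells of a type and less RNA per cell cannot be told apart.

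Proteasome genes were among the more abundant transcripts of this tissue. Of the 37 genes, 34 lay above the median level of all genes and 22 above the 90th percentile. The 14 constitutive core genes spanned a 2.54-fold range of mean FPKM, from Psma5, an alpha subunit, at 44.6 to Psmb1, a non-catalytic beta subunit, at 113. Cap genes varied more: 17 of them, without the assembly chaperones Psmd5, Psmd9 and Psmd10, spanned 4.47-fold, from the lid subunit Psmd11 at 27.1 to the ATPase Psmc5 at 121. Psma2 at 76.4 FPKM was highest in its family, Psmc6 at 39.5 lowest among the ATPases, Psmd8 at 67.7 the highest and Psmd10 at 8.56 the lowest of the Psmd genes. FPKM is a level per length, so these genes can be set beside each other. The inducible catalytic subunits Psmb8 and Psmb9, which interferon gamma raises in immune cells, were low. Psmb9 in its lowest library rested on about 21 fragments and Psmb8 on about 42, with counting errors of about 21.8% and 15.4%. All genes apart from Psmb8, Psmb9, Psmd10, Psmb10 and Psmd9 rested on at least about 803 fragments.

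Mean FPKM was higher in the stress group than in the control group for nearly every subunit, by small amounts that did not pass the test gene by gene. In CUS against control, 36 of 37 genes had a higher mean in CUS and 1, Psmb9, a lower one. The median log2 difference of the 37 was 0.16, where that of all 14013 genes was 0.02 and 55.9% of all genes were above 0 and 44.1% below. No proteasome gene was called by limma at an adjusted p under 0.05 in this comparison, where 0.00714% of all genes were. At an unadjusted limma p under 0.05, 17 of the 37 were higher and 0 lower, beside 8.9% of all genes higher and 5.79% lower. The CUS libraries lay wholly above the control libraries for 21 of the 37 and wholly below for 0, beside 12.1% and 7.6% of all genes. With 3 libraries a side, the smallest p that an exact permutation test of 1 gene allows is 0.1.

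**Figure D1:**
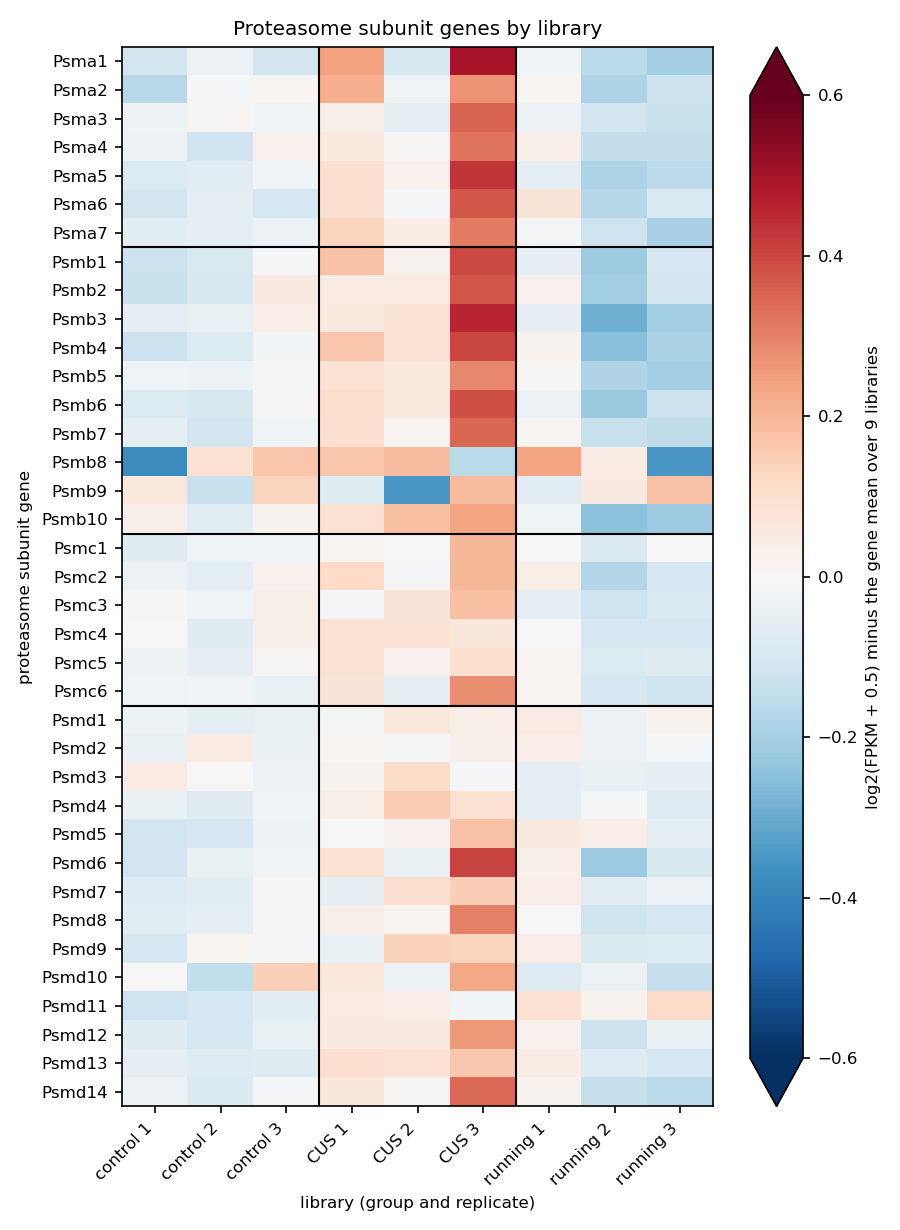
Heat map of the 37 proteasome genes (vertical axis, by family) in the 9 libraries (horizontal axis), coloured by log2(FPKM + 0.5) minus the gene's mean over the 9 libraries. CUS 3 is the reddest column, being the highest library for 29 of the 37 genes, and running 2 and running 3 hold the lowest value for 17 and 10 genes.

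The core particle stood further from control than the cap, a difference that was not tested. In the core, 16 of 17 genes were higher in CUS, with a median log2 difference of 0.22, and 12 had an unadjusted limma p under 0.05. All 20 cap genes were higher, with a median of 0.12, and 5 had an unadjusted limma p under 0.05. Of all genes, 8.9% were higher at that level. With FPKM rescaled to a common sum the core and cap medians were 0.15 and 0.06, and with the length and GC trend removed 0.11 and 0.05. By family, the medians were 0.21 for Psma, 0.22 for Psmb, 0.11 for Psmc and 0.13 for Psmd. Within the cap, the 8 lid genes had a median of 0.17 and the 9 base genes 0.10.

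The alpha subunits gate the entry to the chamber. Psma7 had the smallest p of its family, at 63.13, 63.57 and 64.53 FPKM in control, 72.59, 68.12 and 81.85 in CUS and 65.68, 60.53 and 57.6 in running libraries. All 3 CUS libraries lay above all 6 others, and CUS 3 stood well above its group. Its log2 difference of CUS against control was 0.21 (SE 0.0736; limma p 0.0149, adjusted p 0.270). Psma3 had the largest p of the family, and its log2 difference was 0.12 (SE 0.0898, limma adjusted p 0.505). CUS 2 at 71.25 FPKM was below the 3 control libraries (72.71 to 74.62), and CUS 3 at 94.68 above them.

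The constitutive catalytic subunits are Psmb5 (chymotrypsin-like), Psmb6 (caspase-like) and Psmb7 (trypsin-like). Psmb5 (gene 19173, chr14:54614120-54617995), whose promoter piece is printed above, was at 78.93, 78.65 and 79.81 FPKM in control, 85.49, 83.63 and 98.13 in CUS and 80.54, 70.63 and 69.66 in running libraries. Control and CUS libraries did not overlap, the control libraries lay close together, and running 2 and running 3 were the lowest. Psmb6 (gene 19175, chr11:70525324-70527858) was at 76.93, 76.18 and 81.82 in control, 87.74, 84.72 and 106.65 in CUS and 79.34, 69.78 and 74.43 in running libraries. Psmb7 (gene 19177, chr2:38588046-38643952) was at 104.66, 100.48 and 106.82 in control, 116.47, 109.66 and 137.88 in CUS and 109.99, 98.79 and 97.62 in running libraries. For both, every CUS library lay above every control library, and CUS 3 was the highest of all 9. The log2 differences of CUS against control were 0.17 (SE 0.0751) for Psmb5, 0.24 (SE 0.0863) for Psmb6 and 0.22 (SE 0.0843) for Psmb7, with limma adjusted p of 0.339, 0.284 and 0.303.

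**Figure D2:**
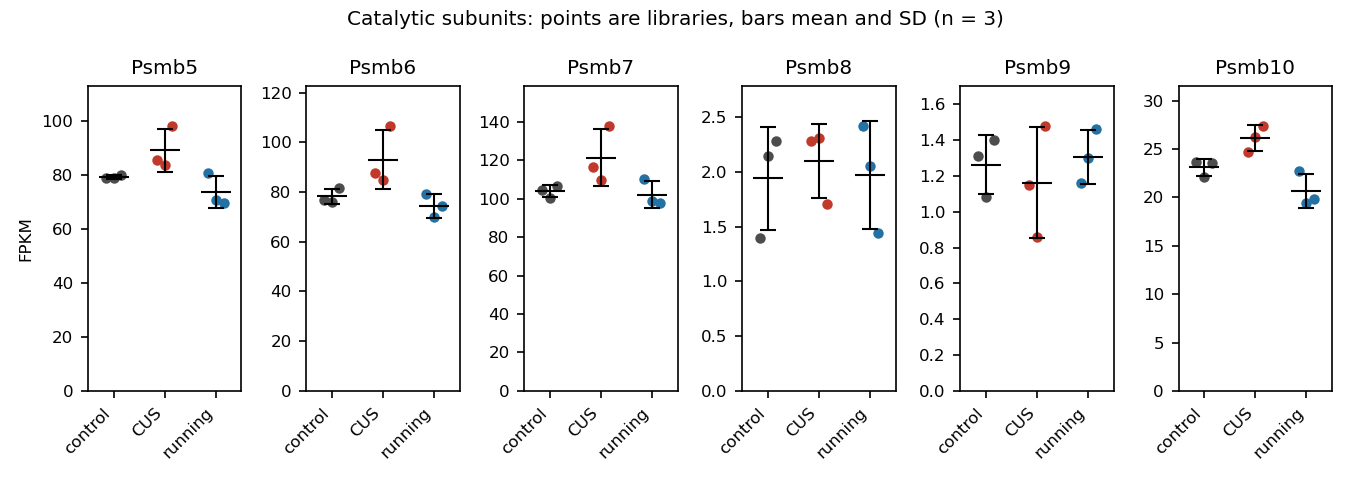
FPKM (vertical axes, from 0) of the constitutive catalytic subunits and their inducible counterparts in the control, CUS and running groups, with 1 point per library and bars for the mean and SD (n = 3). For Psmb5, Psmb6, Psmb7 and Psmb10 the CUS points lie above the control points, while for Psmb8 and Psmb9 the 3 groups overlap between 0.86 and 2.42 FPKM.

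Of the inducible counterparts, Psmb10 was an abundant transcript and Psmb8 and Psmb9 were not. Psmb10, which replaces Psmb7, was at 23.64, 22.13 and 23.56 FPKM in control, 24.69, 26.29 and 27.41 in CUS and 22.72, 19.43 and 19.88 in running libraries. Every CUS library lay above the other 6, and the lowest values were in running 2 and running 3. Psmb8 (chr17:34198195-34201454), which replaces Psmb5, was at 1.4 to 2.28 FPKM in control, 1.71 to 2.31 in CUS and 1.44 to 2.42 in running libraries. Psmb9 (chr17:34182030-34187330), which replaces Psmb6 and lies near Psmb8 with Tap1 in between, was at 1.08 to 1.4 in control, 0.86 to 1.48 in CUS and 1.16 to 1.46 in running libraries. The groups overlapped for both, with log2 differences of CUS against control of 0.10 (SE 0.183) and -0.10 (SE 0.146) and limma adjusted p of 0.791 and 0.751. Psmb10 had 0.17 (SE 0.0710; limma adjusted p 0.314). Among the other beta subunits, Psmb4 had the smallest p of its family, at 94.57, 97.66 and 102.13 FPKM in control and 116.18, 109.4 and 136.8 in CUS libraries. The groups did not overlap, with a log2 difference of 0.29 (SE 0.0918; limma p 0.00888, adjusted p 0.267).

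The 6 ATPases were each higher in CUS, by log2 differences of 0.07 to 0.13. At an unadjusted limma p under 0.05 stood 0 of the 6, beside 8.9% of all genes higher. Psmc5 had the smallest p, with 118.69, 117.05 and 121.87 FPKM in control and 129.12, 123.41 and 130.15 in CUS libraries. The groups did not overlap, and the log2 difference was 0.10 (SE 0.0530; limma p 0.0949, adjusted p 0.388). Psmc3 had the largest p, and its log2 difference was 0.07 (SE 0.0592; limma adjusted p 0.544).

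Among the non-ATPase subunits, Psmd13 of the lid had the smallest p of all 37 genes. It was at 34.32, 33.92 and 33.94 FPKM in control, 38.45, 38 and 40.03 in CUS and 36.92, 33.84 and 33.16 in running libraries. The CUS libraries lay above all others and close together, and the log2 difference of CUS against control was 0.19 (SE 0.0558; limma p 0.00689, adjusted p 0.260). Psmd14, the deubiquitinase that removes chains from substrates, was at 44.7, 43.11 and 45.39 in control and 48.01, 46.04 and 58.15 in CUS libraries. Its groups did not overlap either, and its log2 difference was 0.18 (SE 0.0857; limma adjusted p 0.349). Psmd4, a receptor for ubiquitin chains, was at 61.31, 59.87 and 62.07 in control and 64.72, 70.24 and 67.19 in CUS libraries, and the log2 difference was 0.14 (SE 0.0520; limma adjusted p 0.294). Unlike most members, Psmd4 was highest in CUS 2. Psmd2, a large scaffold of the base, differed least. It was at 59.49, 63.56 and 59.74 in control, 61.92, 61.15 and 62.62 in CUS and 63.03, 59.78 and 61.03 in running libraries, and the 3 groups overlapped throughout. Its log2 difference of 0.02 (SE 0.0511; limma adjusted p 0.837) turned to -0.04 when FPKM were rescaled to a common sum or quantile normalized.

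In running against CUS the differences pointed the other way. Of the 37 genes, 35 had a lower mean in running libraries and 2, Psmb9 and Psmd11, a higher one. The median log2 difference was -0.19, where that of all genes was -0.03 and 57.8% of all genes were below 0 and 42.2% above. No proteasome gene was called by limma at an adjusted p under 0.05, where 0.00714% of all genes were. At an unadjusted limma p under 0.05, 25 of the 37 were lower and 0 higher, beside 15.7% of all genes lower and 7.74% higher. At a limma adjusted p under 0.1, 8 were lower, beside 4.5% of all genes, and all 8 were core genes: Psma5, Psma7, Psmb1, Psmb3, Psmb4, Psmb5, Psmb6 and Psmb10. The running libraries lay wholly below the CUS libraries for 18 of the 37 and wholly above for 0, beside 15.9% and 8.99% of all genes. Calls in this comparison depended on the libraries used: without CUS 2, 11 of the 37 were called at a limma adjusted p under 0.05, beside 10.8% of all genes, and with libraries weighted by quality 13, beside 15.5%. With CUS 1, CUS 3 or any 1 running library left out, 0 genes were called. This comparison uses the same CUS libraries as that with control, so a high CUS library moves both.

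**Figure D3:**
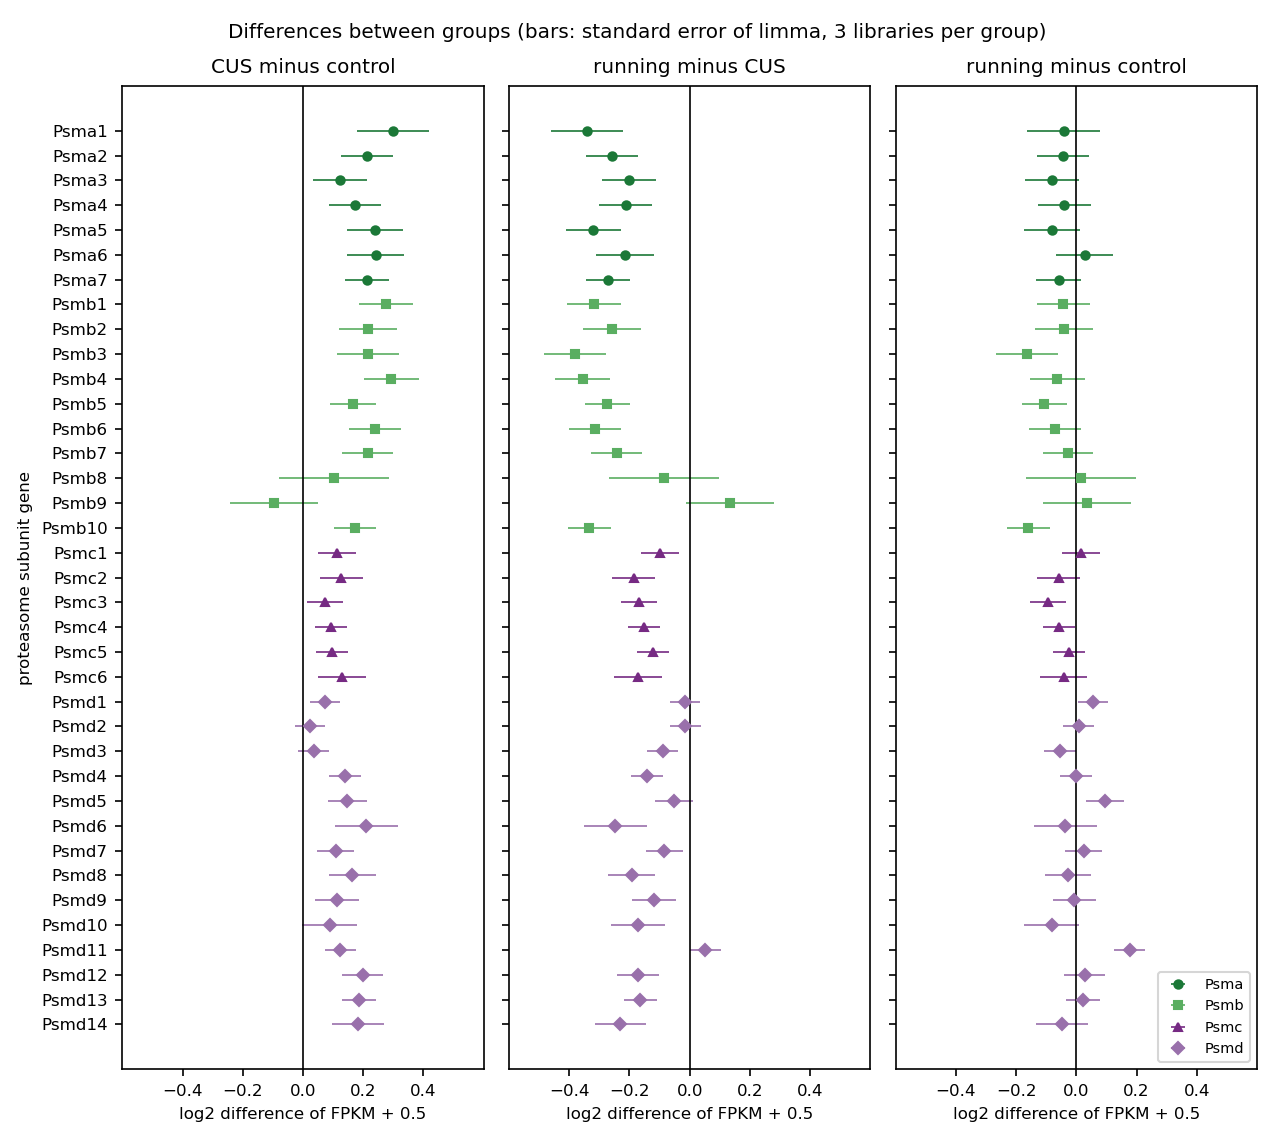
Log2 difference of FPKM + 0.5 (horizontal axes) of each proteasome gene (vertical axis) for the 3 comparisons, with bars for the limma standard error and 3 libraries per group. Points of CUS minus control lie right of 0 except Psmb9, those of running minus CUS left of 0 except Psmb9 and Psmd11, and those of running minus control lie on both sides, 11 right and 26 left.

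The core again stood further from 0 than the cap, with medians of -0.27 and -0.15, a difference that was not tested. With FPKM rescaled to a common sum these medians were -0.17 and -0.05, and with the length and GC trend removed -0.10 and -0.02. In the core 15 of 17 genes were lower at an unadjusted limma p under 0.05 and in the cap 10 of 20, beside 15.7% of all genes. Medians by family were -0.26 for Psma, -0.29 for Psmb, -0.16 for Psmc and -0.13 for Psmd. Psmb10 had the smallest p of all 37, with a mean of 26.1 ± 1.37 FPKM (SD, n = 3) in CUS and 20.7 ± 1.78 (SD, n = 3) in running libraries. Its log2 difference was -0.33 (SE 0.0710; limma p 0.000713, adjusted p 0.0776). Without CUS 2, where 10.8% of all genes were called, the limma adjusted p was 0.0374. Psmb5 had -0.27 (SE 0.0751), Psmb6 -0.31 (SE 0.0863) and Psmb7 -0.24 (SE 0.0843), with limma adjusted p of 0.0924, 0.0924 and 0.130. For Psmb7 the running libraries reached 109.99 FPKM and overlapped CUS 2 at 109.66. Psma7 had the smallest p of the alpha genes, with -0.27 (SE 0.0736; limma adjusted p 0.0915), and Psma6 the largest, with -0.21 (SE 0.0951; limma adjusted p 0.205).

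In the cap, Psmc3 at 75.6 ± 1.99 FPKM (SD, n = 3) in running against 85.0 ± 5.72 in CUS libraries had the smallest p of the ATPases, and its log2 difference was -0.17 (SE 0.0592; limma adjusted p 0.133). Psmc1 had the largest, with -0.10 (SE 0.0634; limma adjusted p 0.374). Psmd13 had -0.16 (SE 0.0558), Psmd14 -0.23 (SE 0.0857) and Psmd4 -0.14 (SE 0.0520), with limma adjusted p of 0.125, 0.149 and 0.145. The running libraries of Psmd4, at 60.76, 62.6 and 59.74 FPKM, lay below every CUS library. Psmd2 had -0.01 (SE 0.0511; limma adjusted p 0.891). Psmb8 had -0.09 (SE 0.183) and Psmb9 0.13 (SE 0.146), with limma adjusted p of 0.808 and 0.610.

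Running libraries and control libraries were close for most subunits. In running against control, 11 of 37 genes were higher and 26 lower, with a median log2 difference of -0.04 beside -0.02 for all genes, of which 43.8% were above 0 and 56.2% below. No proteasome gene was called by limma at an adjusted p under 0.05, where 0.0214% of all genes were. At an unadjusted limma p under 0.05, 1 gene was higher, Psmd11, beside 5.15% of all genes, and 1 lower, Psmb10, beside 6.47%. Groups did not overlap for 1 gene that was higher (10.5% of all genes) and 3 that were lower, Psma3, Psmc3 and Psmd3 (11.9% of all genes), shares that are below the background. The mean was highest in CUS and lowest in running libraries for 26 of the 37 genes, and highest in CUS and lowest in control for 9.

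Psmd11 was the 1 member with its lowest mean in control and its highest in running libraries. It is a lid subunit that holds the lid to the core particle. It was at 24.8, 25.14 and 25.79 FPKM in control, 28.05, 27.82 and 26.8 in CUS and 28.89, 27.54 and 29.38 in running libraries. All 6 treated libraries lay above all 3 control libraries. CUS 3, the highest library for most members, was the lowest of its group here. The log2 difference was 0.18 (SE 0.0520; limma p 0.00617, adjusted p 0.265) for running against control, 0.12 (SE 0.0520; limma adjusted p 0.318) for CUS against control and 0.05 (SE 0.0520; limma adjusted p 0.566) for running against CUS. Psmb10 had -0.16 (SE 0.0710; limma p 0.0466, adjusted p 0.423) for running against control. Psma3, with -0.08 (SE 0.0898), and Psmc3, with -0.09 (SE 0.0592), had the smallest p of their families, at limma adjusted p of 0.762 and 0.571. The largest p of each family belonged to Psma6 at 0.03 (SE 0.0951), Psmb8 at 0.02 (SE 0.183), Psmc1 at 0.02 (SE 0.0634) and Psmd4 at -0.00128 (SE 0.0520), with limma adjusted p of 0.936 to 0.996. The other members above 0 were Psmb9, Psmd1, Psmd2, Psmd5, Psmd7, Psmd12 and Psmd13, at 0.01 to 0.10.

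One CUS library set much of the size of these differences. The mean deviation of the 17 core genes from their own means, on the log2 scale, was -0.09, -0.06 and 0.01 in control, 0.11, 0.02 and 0.32 in CUS and 0.01, -0.16 and -0.15 in running libraries. For the 20 cap genes it was -0.05, -0.05 and -0.01 in control, 0.04, 0.04 and 0.17 in CUS and 0.01, -0.08 and -0.06 in running libraries. In both, all 3 CUS libraries stood above the others, although CUS 2 in the core by little. Running 1 stood apart from running 2 and running 3, level with control 3 in the core and above all controls in the cap. The core deviation minus the cap deviation was -0.04 to 0.02 in control, -0.03 to 0.16 in CUS and -0.08 to -0.01 in running libraries, so the groups overlapped. Within groups, the median SD of the 37 genes was 0.0434 in control, 0.134 in CUS and 0.0812 in running libraries, beside 0.0775, 0.126 and 0.0846 for all genes. Without CUS 3, 36 of 37 genes were higher in CUS than in control, the median was 0.09, and 8 genes had an unadjusted limma p under 0.05 beside 5.79% of all genes. For running against CUS, 34 of 37 were then lower, with a median of -0.12, and 15 had an unadjusted limma p under 0.05 beside 12.3% of all genes.

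The differences also followed transcript length, a feature on which the core and the cap differ. The median transcript was 1183 bases in the core, 1711 in the cap and 3046 over all genes. Across the 37 genes, which share libraries, Pearson's r between log2 length and the log2 difference was -0.40 for CUS against control and 0.58 for running against CUS. Across 13766 genes with a length it was -0.33 and 0.52. Genes are not independent replicates, and these r values are descriptions. Among 18 members shorter than 1500 bases (13 of them core) the median log2 difference of CUS against control was 0.21, beside 0.14 for all 2073 genes of that class. Among 10 members of 1500 to 2000 bases it was 0.15 beside 0.08, and among 9 of at least 2000 bases 0.12 beside -0.00267. For running against CUS the medians of members and of all genes in these classes were -0.25 beside -0.23, -0.17 beside -0.14 and -0.09 beside 0.01.

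**Figure D4:**
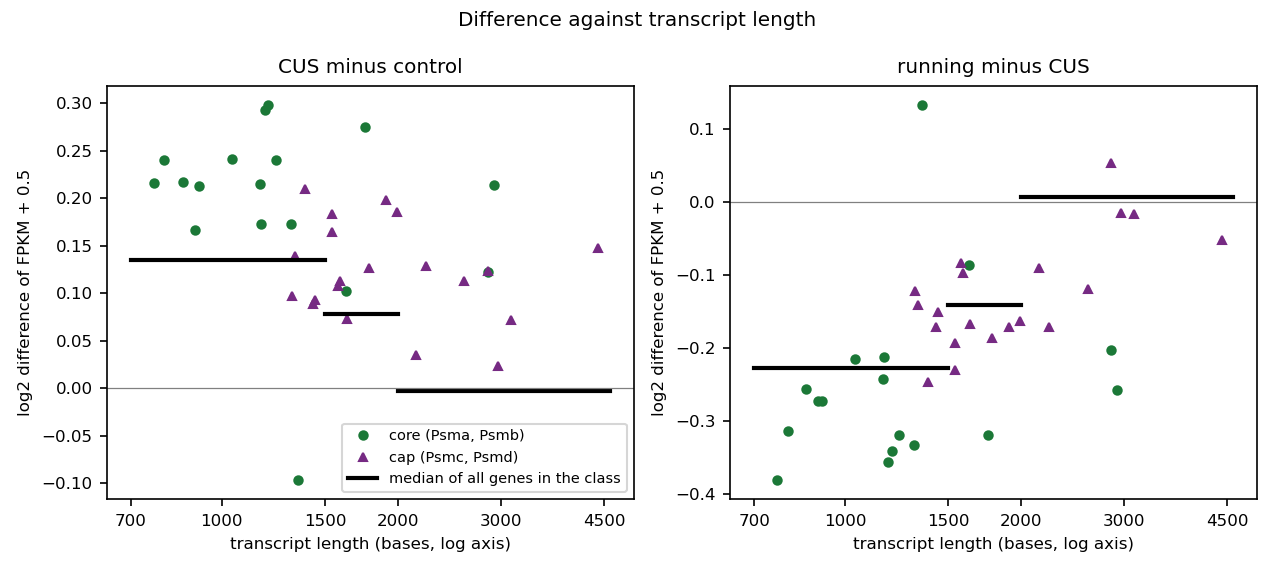
Log2 difference of FPKM + 0.5 (vertical axes) against transcript length in bases (log axis) for core (circles) and cap (triangles) genes, with black lines for the median of all genes in each length class. In CUS minus control most members lie above the line of their class (0.14, 0.08 and -0.00267), while in running minus CUS those under 2000 bases scatter around it (-0.23 and -0.14).

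The trend with length and GC content was then removed from each library. In CUS against control 35 of 37 genes were still higher, with a median of 0.09 beside 0.02 for all genes, and 10 had an unadjusted limma p under 0.05 beside 9.36% of 13766 genes. In running against CUS 25 of 37 were still lower, with a median of -0.05 beside -0.01, and 7 had an unadjusted limma p under 0.05 beside 8.67%. In running against control the balance turned from 26 lower to 28 higher, with a median of 0.03. The core deviations were then -0.07, -0.02 and -0.03 in control, 0.05, 0.04 and 0.09 in CUS and 0.05, -0.07 and -0.03 in running libraries. CUS 3 no longer stood far apart, and running 1 lay among the CUS libraries. With FPKM rescaled to a common sum, 34 of 37 were higher in CUS than in control (median 0.10), 9 at an unadjusted limma p under 0.05 beside 4.08% of all genes. On that scale 29 were lower in running than in CUS (median -0.09), 10 at that level beside 6.59%. Whether length itself or something that moves with it underlies these values was not tested.

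**Figure D5:**
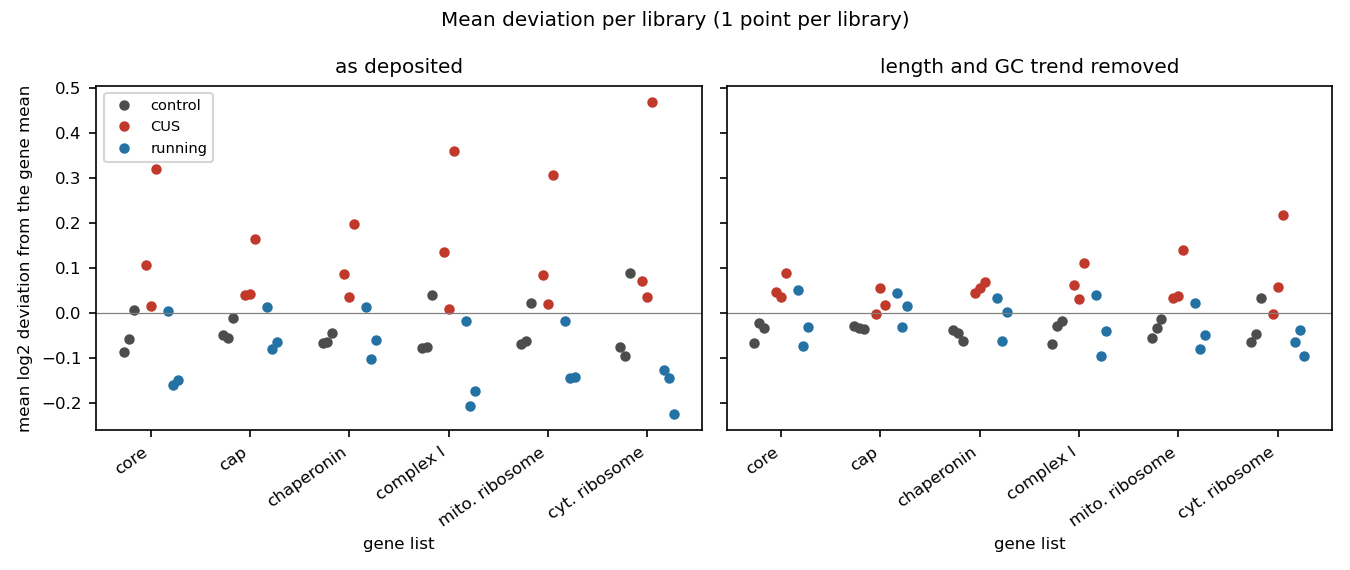
Mean log2 deviation from the gene mean (vertical axis) of the proteasome core and cap and of 4 other lists of housekeeping complexes (horizontal axis), with 1 point per library coloured by group, before (left) and after (right) removal of the length and GC trend. CUS 3 leads each list on the left, and the core values of CUS libraries narrow from 0.02 to 0.32 to 0.04 to 0.09 on the right.

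Other large complexes of short transcripts moved with the proteasome. Median log2 differences of CUS against control and of running against CUS were 0.22 and -0.36 for 77 cytosolic ribosomal protein genes, 0.16 and -0.25 for 75 mitochondrial ribosomal protein genes and 0.20 and -0.32 for 37 genes of respiratory complex I. Their median transcripts were 878, 1332 and 892 bases. After removal of the length and GC trend, the CUS against control medians were 0.12, 0.10 and 0.11, beside 0.11 for the proteasome core and 0.05 for the cap. Those of running against CUS were then -0.15, -0.11 and -0.09, beside -0.10 for the core and -0.02 for the cap. Whether the proteasome differs from these complexes was not tested.

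Helpers of the proteasome were described from gene lists, and their counts are read beside the same shares of all genes as the members' counts. Of 8 assembly chaperones, which bring subunits together and of which Psmd5, Psmd9 and Psmd10 are also among the 37, all 8 were higher in CUS than in control (median 0.17, 4 at an unadjusted limma p under 0.05, beside 8.9% of all genes) and all 8 lower in running than in CUS (median -0.18, 3 at that level, beside 15.7%). Psmg2, which pairs with Psmg1 to build the alpha ring, was at 10.77, 11.88 and 11.35 FPKM in control, 15.47, 11.92 and 16.53 in CUS and 10.77, 8.82 and 9.95 in running libraries. The CUS libraries lay above the rest, CUS 2 only just. Its log2 difference was 0.34 (SE 0.113; limma adjusted p 0.267) for CUS against control and -0.54 (SE 0.113; limma adjusted p 0.0776) for running against CUS. Psmg1 had 0.34 and -0.32, and Psmg4, another alpha ring chaperone, 0.33 and -0.56, with limma adjusted p for running against CUS of 0.0941 and 0.0811. Without CUS 2 all 3 were called in that comparison, at limma adjusted p of 0.0218 for Psmg2, 0.0435 for Psmg1 and 0.0377 for Psmg4. They were also called with libraries weighted by quality. Those settings called 10.8% and 15.5% of all genes. Psmd5 had 0.15 for CUS against control. Pomp, which is needed to build the beta ring, averaged 105 FPKM over the 9 libraries.

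Of 12 accessory subunits, activators and inhibitors, 11 were higher in CUS than in control (median 0.09), 4 at an unadjusted limma p under 0.05 beside 8.9% of all genes. In running against CUS 9 were lower (median -0.10), 3 at that level beside 15.7% of all genes. Psme1, a subunit of the activator that pairs with the inducible core, was at 33.18, 33 and 36.22 FPKM in control, 36.72, 40.71 and 41.05 in CUS and 33.53, 33.52 and 30.72 in running libraries. All CUS libraries lay above the other 6. Its log2 differences were 0.21 (SE 0.0663; limma adjusted p 0.267) for CUS against control and -0.27 (SE 0.0663; limma adjusted p 0.0827) for running against CUS. For the same comparisons Sem1, a small lid subunit, had 0.23 and -0.31, and Txnl1, a redox protein bound to the cap, 0.21 and -0.24. Sem1 and Txnl1 were called in running against CUS without CUS 2, at limma adjusted p of 0.0407 and 0.0389, beside 10.8% of all genes. Both and Psme1 were called with libraries weighted by quality, beside 15.5% of all genes. Usp14, a deubiquitinase of the cap, had 0.18 for CUS against control. None of 6 interferon-linked genes had an unadjusted limma p under 0.05 in any comparison, beside 5.15% to 15.7% of all genes per comparison and direction. B2m, the class I light chain, averaged 104 FPKM and was the highest of them. Its log2 difference of running against CUS was -0.25 (SE 0.114, limma p 0.0509, adjusted p 0.214).

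The regulators of proteasome transcription were split in direction. Of 13, 5 were higher and 8 lower in CUS than in control (median -0.09), beside 55.9% and 44.1% of all genes. In running against CUS 8 were higher and 5 lower (median 0.06), beside 42.2% and 57.8%. Their median transcript was 3162 bases, longer than that of the core or the cap. With the length and GC trend removed, 6 were higher and 7 lower in CUS than in control (median -0.02). In running against CUS 8 were then higher and 5 lower (median 0.04). Nfe2l1, the main driver, was at 82.55, 83.69 and 78.4 FPKM in control, 78.13, 78.66 and 67.77 in CUS and 88.63, 83.48 and 86.56 in running libraries. CUS 3, where most subunits were highest, had its lowest value. Its log2 difference of running against CUS was 0.21 (SE 0.0664; limma p 0.0105, adjusted p 0.115), and 0.13 with the length and GC trend removed. Ddi2, the protease that activates the Nfe2l1 protein, was at 7.19, 5.75 and 5.32 in control, 4.99, 5.47 and 2.87 in CUS and 6.37, 7.04 and 6.18 in running libraries. Running lay above CUS without overlap, and CUS overlapped control. Its log2 differences were -0.45 (SE 0.187; limma adjusted p 0.318) for CUS against control and 0.55 (SE 0.187; limma adjusted p 0.125) for running against CUS, and without CUS 3 they were -0.19 and 0.29. Of the small Maf partners, Maff had -0.52 and Mafk -0.31 for CUS against control. Mafg had 0.19 for running against CUS and Mafk -0.27 for running against control. Maff was imprecise, as its CUS libraries, at 0.51 to 0.72 FPKM, lay close to the filter of 0.5 FPKM. Nfyc, a CCAAT box factor, had 0.13 for CUS against control and -0.17 for running against CUS. None of these was called at a limma adjusted p under 0.05 in the model of all 9 libraries with equal weights. Mafg (limma adjusted p 0.0289) and Ddi2 (0.0417) were called in running against CUS without CUS 2, beside 10.8% of all genes. Mafg (limma adjusted p 0.0201) and Nfe2l1 (0.0472) were called with libraries weighted by quality, beside 15.5% of all genes.

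Upstream of the proteasome, 6 ubiquitin genes and activating enzymes included Ubb at a mean of 1351 FPKM. Rps27a, which encodes ubiquitin fused to a ribosomal protein, had a log2 difference of running against CUS of -0.44 (SE 0.129; limma adjusted p 0.0986). Its limma adjusted p was 0.0271 without CUS 2, where 10.8% of all genes were called. Ubb had -0.20 for the same comparison. Uba6, an activating enzyme, had 0.25 for running against control. Of 6 shuttle factors, which carry ubiquitinated proteins to the cap, 5 passed the filter and Ddi1 did not. In each of the 3 comparisons 0 of the 5 had an unadjusted limma p under 0.05. Per comparison and direction, 5.15% to 15.7% of all genes were at that level, and 5 genes are too few to set against such shares. Ubqln2 was the highest of the 5, with a mean of 77.9 FPKM.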

How the data were processed

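The authors deposited 1 table of FPKM values, rounded to 2 decimals, for 9 libraries. Per the labels' protocols, RNA was extracted with Trizol, selected on oligo(dT) beads, primed with random hexamers and circularised, and no step marks the strand. The submitters' processing notes name Bowtie2 2.2.5, RSEM 1.2.12, DESeq2 1.4.5 and the build mm10 without saying what each did. How fragments shared between near-identical copies were assigned is not given in the sources used here, so members with retrocopies are uncertain. Of 65389 deposited entries, 30264 had no gene symbol and were at 0 in all libraries.

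Values were analysed as log2(FPKM + 0.5), and fold changes on this scale understate changes of low genes. Genes at 0.5 FPKM or more in at least 3 libraries were kept. The 3 comparisons were tested with limma 3.58.1 in R 4.3.3, in 1 model of all 9 libraries. Variances were moderated along an intensity trend (6 residual degrees of freedom, median prior 4.71), and p-values were adjusted by Benjamini-Hochberg over 14013 genes. The procedure was tested on simulated data with errors drawn independently for each gene. That simulation held no shift shared by the genes of a library, so it does not cover such shifts. Genes were called at an adjusted p under 0.05. Transcript length and GC content came from GENCODE M21 (98.2% of kept genes), coordinates and promoters from RefSeq GRCm38.p6. Depth was estimated from the step of 1 fragment in single-transcript genes of 600 to 1500 bases, at 2 decimals, and is approximate.

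The members and all lists were chosen with earlier results of these data known, so no list was tested. Named were members by role, those with the smallest and largest p per family and comparison, those of minority sign, the highest and lowest per family, and up to 4 genes per other list at an unadjusted p under 0.05 (otherwise its highest gene); 1 such gene is not reported here. Alternatives were pseudocounts of 0.1 and 1, other filters and scalings, no intensity trend, library quality weights, a model of only the 6 libraries compared, each library left out, and removal of the length and GC trend.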

Additional observations from a re-analysis of the deposited data

How the results depend on the processing

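No paired analysis was possible because replicate numbers are listing order only. In CUS against control, genes called (1) were 0 at a filter of 1 FPKM, 8 with quality weights, 0 with the length and GC trend removed (chosen after the data were seen) and 1 to 6 with each library left out. Members at an unadjusted limma p under 0.05 (17) were 9 rescaled to a common sum (TPM), 10 with quantile normalization, 11 with median centring, 10 with the trend removed and 6 to 22 with each library left out. The median of members ranged from 0.09 to 0.21 over all settings. In running against CUS, genes called (1) were 0 without a filter, 3 with TPM, 2 with quantile normalization and with median centring, 2178 (15.5%) with quality weights, 15 in the 6 libraries compared, 0 with the trend removed and 0 to 1518 (10.8%, without CUS 2) with each library left out. Members called (0) were 13 with quality weights and 0 to 11 (11 without CUS 2). Members at an unadjusted p under 0.05 (25) were 10 with TPM, 11 with quantile normalization, 16 with median centring, 7 with the trend removed and 10 to 26 with each library left out. The median (-0.19) was -0.085 with TPM, -0.11 with quantile normalization, -0.049 with the trend removed and -0.24 to -0.12 with each library left out. In running against control, genes called (3) were 1 without a filter, 7 without intensity trend, 147 with quality weights, 24 in the 6 libraries compared, 11 with the trend removed and 1 to 10 with each library left out, with 0 members called throughout. The median was -0.09 to -0.01 with each library left out and turned to 0.03 with the trend removed.

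With the trend removed, 1 of the 37 members (Psmd10) changed sign in CUS against control, 10 in running against CUS (from differences of up to 0.21 in size) and 17 in running against control (up to 0.11). Of the members named by rule in a comparison, these changed sign. In CUS against control, Psmd2 was -0.043 with TPM and -0.038 with quantile normalization, and leaving out single libraries gave ranges of -0.23 to 0.040 for Psmb9 and -0.068 to 0.22 for Psmb8. In running against CUS, with the trend removed, Psmb8 was 0.038, Psmc1 0.040, Psmd4 0.012, Psma6 0.00018 and Psmd2 1.89e-05. Psmc1 was 0.0037 with TPM, and Psmd2 0.087 with TPM, 0.069 with quantile normalization and 0.021 with median centring. Leaving out single libraries gave -0.0040 to 0.27 for Psmb9, -0.22 to 0.078 for Psmb8 and -0.035 to 0.0030 for Psmd2. In running against control, Psmd4 was 0.034 with TPM, 0.023 with quantile normalization, 0.011 with median centring and 0.086 with the trend removed, and Psmb8 was -0.027 with quality weights. Leaving out single libraries gave -0.15 to 0.18 for Psmb8, -0.00024 to 0.045 for Psmc1, -0.020 to 0.014 for Psmd4 and -0.041 to 0.081 for Psma6. The cause of these changes was not tested. Depth limits the precision of Psmb8 and Psmb9.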

Other observations

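Complexes related to the cap in build or in task were described the same way. The COP9 signalosome, which trims cullin ubiquitin ligases and shares the subunit plan of the lid, had 9 of 9 genes higher in CUS than in control (median log2 difference 0.13, 2 at an unadjusted limma p under 0.05, beside 8.9% of all genes) and 9 of 9 lower in running than in CUS (median -0.16, 4 at that level, beside 15.7% of all genes). Cops4 was at 33.78, 34.57 and 35.11 FPKM in control, 37.47, 38.22 and 43.65 in CUS and 35.75, 32.3 and 33.95 in running libraries, so the CUS libraries lay above the other 6. Its log2 differences were 0.20 (SE 0.0677; limma adjusted p 0.267) and -0.22 (SE 0.0677; limma adjusted p 0.103). For running against CUS, Cops6 had -0.26, Gps1 -0.16 and Cops8 -0.14, and Cops8 had 0.14 for CUS against control.

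The cytosolic chaperonin, which folds actin and tubulin, had 8 of 8 genes higher in CUS than in control (median 0.16), 7 at an unadjusted limma p under 0.05 beside 8.9% of all genes, and the groups did not overlap for any of the 8, beside 12.1% of all genes. All 8 were lower in running than in CUS (median -0.16, 5 at that level beside 15.7% of all genes), and running against control was near 0 (median 0.0039). Cct4 was at 41.27, 42.25 and 40.36 FPKM in control, 45.83, 45.03 and 54.29 in CUS and 42.6, 39.38 and 42.38 in running libraries. Its log2 difference of CUS against control was 0.22 (SE 0.0734; limma adjusted p 0.267), Cct8 had 0.21, Cct3 0.17 and Cct5 0.15. For running against CUS Cct4 had -0.22, Cct8 -0.21, Tcp1 -0.16 and Cct3 -0.15. With a median transcript of 2418 bases, this complex is longer than the proteasome core, and with the length and GC trend removed its medians were 0.10 and -0.07. Of 7 genes of the unfoldase complex, which extracts proteins from membranes and complexes, 5 were higher in CUS than in control (median 0.03). Nsfl1c, a cofactor, had 0.15 for CUS against control and -0.21 for running against CUS, where Ubxn1 and Ufd1 each had -0.20, and Ubxn1 had -0.18 for running against control. None of the genes of these 3 lists was called at a limma adjusted p under 0.05 in the model of all 9 libraries with equal weights. Among those named, Cct8 (limma adjusted p 0.0401), Cops6 (0.0401) and Nsfl1c (0.0353) were called in running against CUS without CUS 2. These, Cct3 and Ufd1 were called with libraries weighted by quality. Those settings called 10.8% and 15.5% of all genes.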
